A study of Mus musculus with 5 samples.

Results

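Chemokines and their receptors were described in whole lung from mice with normal and raised right ventricular pressure. The members were the genes whose symbol begins with Ccl, Cxcl, Xcl or Cx3cl, or is Ccr, Cxcr, Xcr or Cx3cr with a number, leaving out Ccr9, and whose probe set was mapped to that gene alone. This gave 47 genes of 12393 on the array, 32 ligands and 15 receptors, covered by 62 probe sets. Where a gene had more than 1, the brightest on average was used.

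RNA was hybridised to 5 arrays, 1 for each condition, each carrying RNA pooled from several animals whose number the labels do not give. The induced BMPR2delx4+ pool came from SM22-tet-BMPR2delx4+ mice on doxycycline, in which the SM22 promoter, active in smooth muscle, drives the doxycycline-dependent expression of a mutant BMP receptor, BMPR2; right ventricular pressure was 50 ± 8 mmHg. The uninduced BMPR2delx4+ pool had the same genotype without doxycycline and 30 ± 3 mmHg. FVB/N mice, 8 weeks of age, made up the hypoxic pool (4 weeks in hypoxia, 50 ± 8 mmHg) and the wild-type pool (30 ± 3 mmHg). The SM22-rtTA pool carried the doxycycline-dependent activator alone, was given doxycycline and had 30 ± 3 mmHg. For the transgenic pools the titles state 8 weeks, which may be age or length of treatment, and the kind of error after each pressure is not stated. Strain was named for the FVB/N pools and not for the transgenic ones. There were no replicate arrays, so differences are given as values without a test, and a fold smaller than the spread among normal-pressure pools cannot be told from it.

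Chemokines are small secreted proteins that steer leukocytes through G-protein-coupled receptors, and are classed as CC, CXC, C or CX3C by the spacing of their first cysteines. CXC ligands that carry a Glu-Leu-Arg motif attract neutrophils through Cxcr2, whereas others attract lymphocytes or hold stem cells and leukocytes in place. In lung, alveolar macrophages, epithelium, endothelium and resident lymphocytes all release them, and leukocytes around small vessels carry the receptors.

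Expression is given as scaled intensity, the deposited value after the arrays were brought to a shared median. A noise floor was set at an intensity of 276, the 50th percentile of all values, and lower values were raised to it, so any ratio to such a value is a bound. A gene was called higher in a raised-pressure pool when it was above the floor, at least 1.5-fold over its matched control and higher than each of the 3 normal-pressure pools; the same rule in reverse gave lower calls. In RNA of whole lung, fewer cells of a type and less RNA per cell cannot be told apart. The labelled tissue was borne out by surfactant protein C (Sftpc) at 10705 to 13366 and the club cell gene Scgb1a1 at 11067 to 13192 in the 5 pools. Genes of other tissues differed between pools: summed over their lists, 10 skeletal muscle genes stood at 63742 after induction and 16229 in hypoxia against 1701 to 3743, 9 genes of stratified epithelium at 16479 and 25329 against 1675 to 1964, and 10 kidney genes at 49852 in the wild-type pool against 1595 to 3149. Their part in the chemokine values was not tested. List sums here and below take every gene of a list on the array, at its scaled intensity before values were raised to the floor. Low sums can therefore be made up of signal under the floor.

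Most of the family lay at the floor. Of the 47 genes, 27 were at the floor in every pool, 10 were above it in some pools and 10 in all 5. Above the floor in at least 1 pool were 7 of 18 CC ligands, 7 of 12 CXC ligands, 1 of 2 other ligands, 3 of 8 CC receptors, 2 of 5 CXC receptors and 0 of 2 other receptors. The CC ligands at the floor throughout were Ccl1, Ccl2, Ccl3, Ccl4, Ccl7, Ccl11, Ccl12, Ccl17, Ccl20, Ccl24 and Ccl25, which include the monocyte attractants Ccl2 and Ccl7 and the eosinophil attractants Ccl11 and Ccl24. The CXC ligands were Cxcl1, Cxcl5, Cxcl9, Cxcl10 and Cxcl11, the last 3 being interferon-induced ligands of Cxcr3. Xcl1 and the receptors Ccr2, Ccr3, Ccr4, Ccr8, Ccr10, Cxcr3, Cxcr5, Cxcr6, Cx3cr1 and Xcr1 completed the set. Of the 135 values of these 27 genes, 30 were at the lowest deposited value, and the highest scaled intensity was 249, so their absence from the results below is a limit of the signal and not a measurement of no expression. Between 12 and 16 members were above the floor in each pool, 12 in SM22-rtTA and 16 in uninduced BMPR2delx4+. Of all genes, 6820 and 6903 were above it in these pools and 7187 to 7439 in the others.

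**Figure D1:**
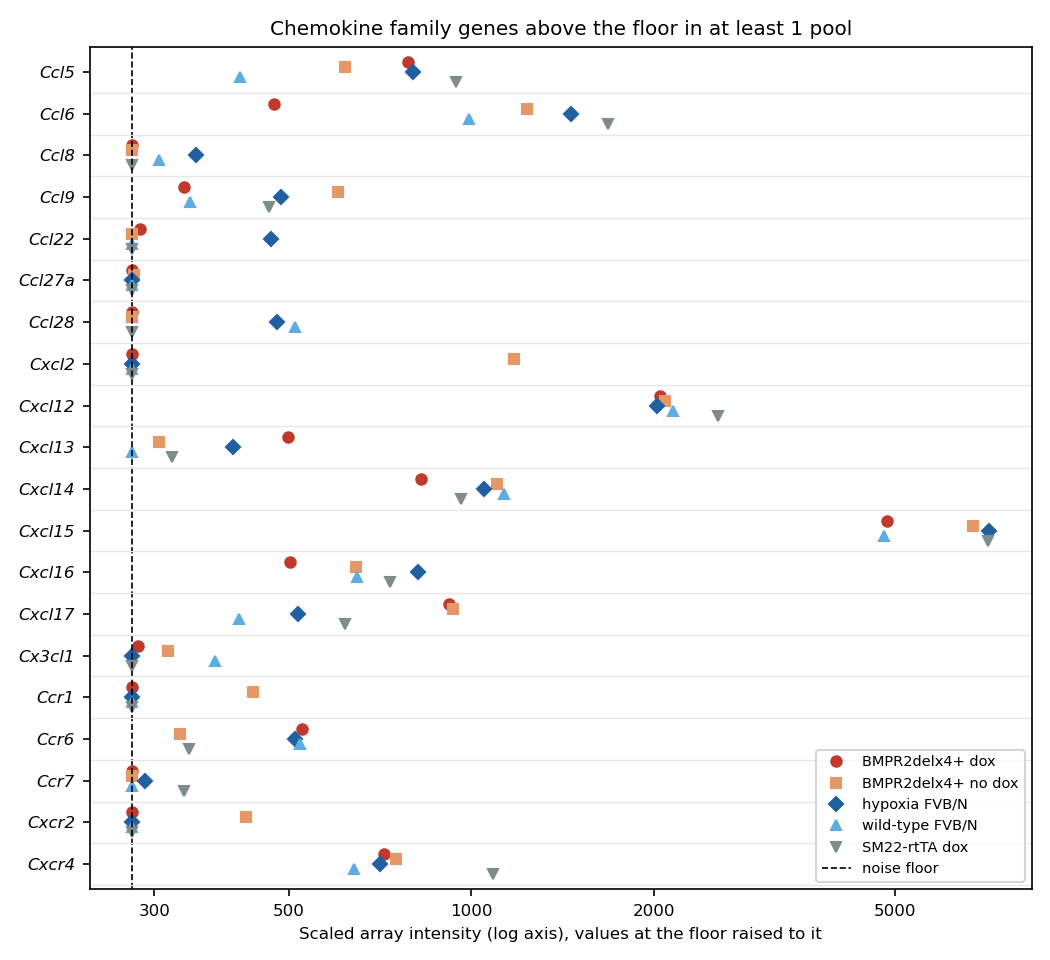
Scaled intensity on a log axis of the 20 chemokine family genes above the noise floor (dashed line, 276) in at least 1 pool, ligands first and then receptors, with 1 point per pool and values under the floor raised to it. The induced pool (red circles) is lowest for Ccl6 at 473, and the uninduced pool (orange squares) is the pool above the floor for Cxcl2, at 1176.

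The bases before the transcription start are shown for some of the genes on which the comparisons turn. These are Ccl6 and Ccl9 (called lower together after induction), Cxcl13 (called higher there), Ccl22 (called higher in hypoxia) and Cxcl2 (above the floor in 1 pool). Each is the 250 bases before the RefSeq start on GRCm38.p6, read 5′ to 3′ on the gene's strand.
Ccl6, chr11:83593088-83593337, minus strand: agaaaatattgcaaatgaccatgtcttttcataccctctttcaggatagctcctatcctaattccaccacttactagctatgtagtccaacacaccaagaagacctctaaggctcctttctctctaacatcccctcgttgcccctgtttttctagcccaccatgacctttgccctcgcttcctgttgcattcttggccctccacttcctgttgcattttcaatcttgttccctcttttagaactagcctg
Ccl9, chr11:83578637-83578886, minus strand: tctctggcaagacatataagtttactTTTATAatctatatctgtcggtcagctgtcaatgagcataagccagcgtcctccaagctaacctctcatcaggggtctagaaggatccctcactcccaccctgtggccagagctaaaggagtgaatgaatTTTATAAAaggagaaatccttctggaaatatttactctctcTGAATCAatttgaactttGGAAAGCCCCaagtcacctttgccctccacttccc
Cxcl13, chr5:95956689-95956938, plus strand: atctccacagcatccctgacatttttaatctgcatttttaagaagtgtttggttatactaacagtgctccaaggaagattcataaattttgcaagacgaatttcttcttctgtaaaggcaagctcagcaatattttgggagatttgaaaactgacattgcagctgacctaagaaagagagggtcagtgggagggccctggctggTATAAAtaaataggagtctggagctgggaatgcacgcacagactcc
Ccl22, chr8:94745434-94745683, plus strand: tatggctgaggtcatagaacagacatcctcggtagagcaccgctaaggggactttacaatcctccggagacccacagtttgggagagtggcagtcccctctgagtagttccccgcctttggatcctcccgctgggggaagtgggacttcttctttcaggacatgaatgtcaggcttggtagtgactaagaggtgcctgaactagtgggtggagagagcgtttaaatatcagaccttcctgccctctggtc
Cxcl2, chr5:90903649-90903898, plus strand: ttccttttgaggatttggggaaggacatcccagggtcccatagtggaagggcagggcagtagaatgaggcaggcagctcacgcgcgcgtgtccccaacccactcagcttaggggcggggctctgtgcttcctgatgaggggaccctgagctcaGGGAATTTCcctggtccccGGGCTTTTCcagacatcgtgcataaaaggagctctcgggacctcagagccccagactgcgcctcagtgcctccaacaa
Capitals mark letters that match 1 of 7 motifs searched on both strands: GGGNNTTNC for NF-kappaB, TGANTCA for AP-1, GAGGAA for PU.1, TTCNNNGAA for STAT factors, ACGTG for the core bound by hypoxia-inducible factor, GGCGCC for a BMP-responsive GC box and TATAAA for the TATA box. Cxcl2 held GGGAATTTC and GGGCTTTTC, which start 97 and 78 bases before the transcription start and match the NF-kappaB letters, found in 13.0% of all 32851 promoters of this length. Ccl9 held GGAAAGCCC and, overlapping it, GAAAGCCCC, the same motif on the other strand, starting 35 and 34 bases before the start, TGAATCA at 53 bases (AP-1, 6.75% of promoters), and TATA letters (12.4% of promoters), with TATAAA at 92 bases overlapping the reverse match TTTATA at 94. Cxcl13 held TATAAA at 46 bases. Ccl6 and Ccl22 held none of the letters in this window. Neither ACGTG (16.6% of promoters) nor GGCGCC (9.59%) occurred in these 5 windows, nor did GAGGAA (23.3%) or TTCNNNGAA (7.02%). Ccr6, called higher after induction, was not among the windows shown. Its window held the letters for NF-kappaB, PU.1, STAT factors and the core bound by hypoxia-inducible factor. The windows of Cxcr2 (NF-kappaB and PU.1 letters) and Ccr1 (PU.1 letters) were not shown either. The absences above therefore hold for the 5 windows and not for every gene on which the comparisons turn. These matches describe the letters and nothing about binding. Promoter sequences were at hand for 34 of the 47 genes.

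The induced BMPR2delx4+ pool was compared with the uninduced pool to find which chemokine genes accompanied expression of the mutant receptor and raised pressure. The myeloid CC ligands Ccl6 and Ccl9 were called lower, and Cxcl13, which attracts B cells, and Ccr6, a receptor of B cells and of some T cells, were called higher. Among the 20 members above the floor in at least 1 pool, 2 were higher, against 3.26% of the 8590 genes so measured, and 2 were lower, against 1.32%. Several of these 20 are in the set through a single pool, so the counts describe and do not support. The median log2 ratio of the 20 was -0.05 and that of all measured genes 0.00.

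Ccl6, a CC ligand made by macrophages and other myeloid cells, was at 473 in the induced pool, 1233 in the uninduced pool, 1462 in hypoxia, 991 in wild type and 1680 in SM22-rtTA. The induced pool was the lowest of the 5 and lay outside the range of the other 4. It was 2.60-fold below its matched control, a log2 ratio of -1.38, and 3.55-fold below SM22-rtTA. With SM22-rtTA as the control Ccl6 was the 1 member called lower, against 3.62% of measured genes, and Cxcl13 and Ccr6 were the 2 called higher, against 6.71%. A second probe set of Ccl6 gave the same order at both ends, at the floor in the induced pool and at 780 in SM22-rtTA, with a log2 ratio of -0.95 to the matched control as a bound.

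Ccl9, the neighbouring CC ligand on chromosome 11, which acts through Ccr1, was at 336 in the induced pool, 603 in the uninduced pool, 485 in hypoxia, 343 in wild type and 464 in SM22-rtTA. It was 1.80-fold below the matched control, but nearly level with wild type, 1.38-fold below SM22-rtTA and not called against it. With values as deposited it was not called, because the wild-type pool was then the lower of the pair. Its other probe set was at the floor in every pool.

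Macrophage and neutrophil genes were set beside these ligands. Of 12 measured genes on the macrophage and monocyte list, 1 was called lower in the induced pool, the lysozyme Lyz2 at 5464 against 8559, and 0 were higher, with a median log2 ratio of -0.08. Over the 15 genes of that list on the array the summed intensity was 13982 in the induced pool and 17217 to 21175 in the other 4. The defining genes Adgre1, Marco and Siglec1 were at the floor throughout. Of 11 measured neutrophil genes 1 was called lower, Lcn2, an iron-siderophore-binding protein, at the floor against 900, with a median log2 ratio of -0.84, and the list summed to 6326 in the induced pool and 18066 in the uninduced pool. The part of either cell type in the values of Ccl6 and Ccl9 was not tested.

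Cxcl13 was at 498 in the induced pool, 305 in the uninduced pool, 405 in hypoxia, 321 in SM22-rtTA and at the floor in wild type. The induced pool was the highest and the hypoxic pool came next, with the normal-pressure pools below both. It was 1.63-fold above the matched control and 1.55-fold above SM22-rtTA, and its second probe set had the same highest pool, at 369 against the floor in the matched control. In hypoxia it was at least 1.47-fold above wild type, short of the 1.5-fold rule. Cxcr5, its receptor on B cells, was at the floor in all pools.

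Ccr6, the receptor of Ccl20, was at 525 in the induced pool, 331 in the uninduced pool, 512 in hypoxia, 521 in wild type and 342 in SM22-rtTA. These values formed a low pair, uninduced BMPR2delx4+ and SM22-rtTA, and a high trio that includes normal-pressure wild type. Ccr6 was 1.58-fold above the matched control, and its call rests on the difference between 525 and 521. Ccl20 itself was at the floor in all pools.

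Lymphocyte genes differed between the same pools. Of 8 measured T cell genes, 3 were called higher after induction, Cd3d at 524, Cd3g at 536 and Lat at 535, each against the floor. On the same list 0 were called lower, but Cd3e went the other way, at 290.5 against 399.2, with the induced pool its lowest. Of 3 measured thymocyte genes 2 were called higher, Rag1 at 788 and Dntt at 470 against the floor. Of 7 measured B cell genes 0 were called, and their summed intensity was 2971 in the induced pool, 2269 in the uninduced pool and 5674 in SM22-rtTA. In SM22-rtTA Cd3d and Cd3g were above the floor too, at 406.7 and 419.5, and over that pool Lat alone of the 8 was called higher. Of the 8, 3 were highest in the induced pool and 5 in hypoxia, Cd3e, Zap70, Cd4, Cd8a and Il7r. On the T cell list Cd247, Cd2, Cd5, Cd8b1 and Cd28 were at the floor in all pools. The list summed to 4887 in the induced pool, 3095 in the uninduced pool, 5678 in hypoxia, 4101 in wild type and 3761 in SM22-rtTA. Rag1 was also above the floor in wild type, at 628, in hypoxia, at 534, and in SM22-rtTA, at 409, whereas Dntt was at the floor there. The thymocyte list summed to 1847 in the induced pool, 717 in the uninduced pool, 1294 in wild type, 1287 in hypoxia and 1021 in SM22-rtTA. Its genes Rag2 and Ptcra were at the floor in all pools. Every gene of that list on the array was at the floor in the uninduced pool, so the sum of 717 is signal under the floor. The part of lymphocytes in the values of Cxcl13 and Ccr6 was not tested.

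**Figure D2:**
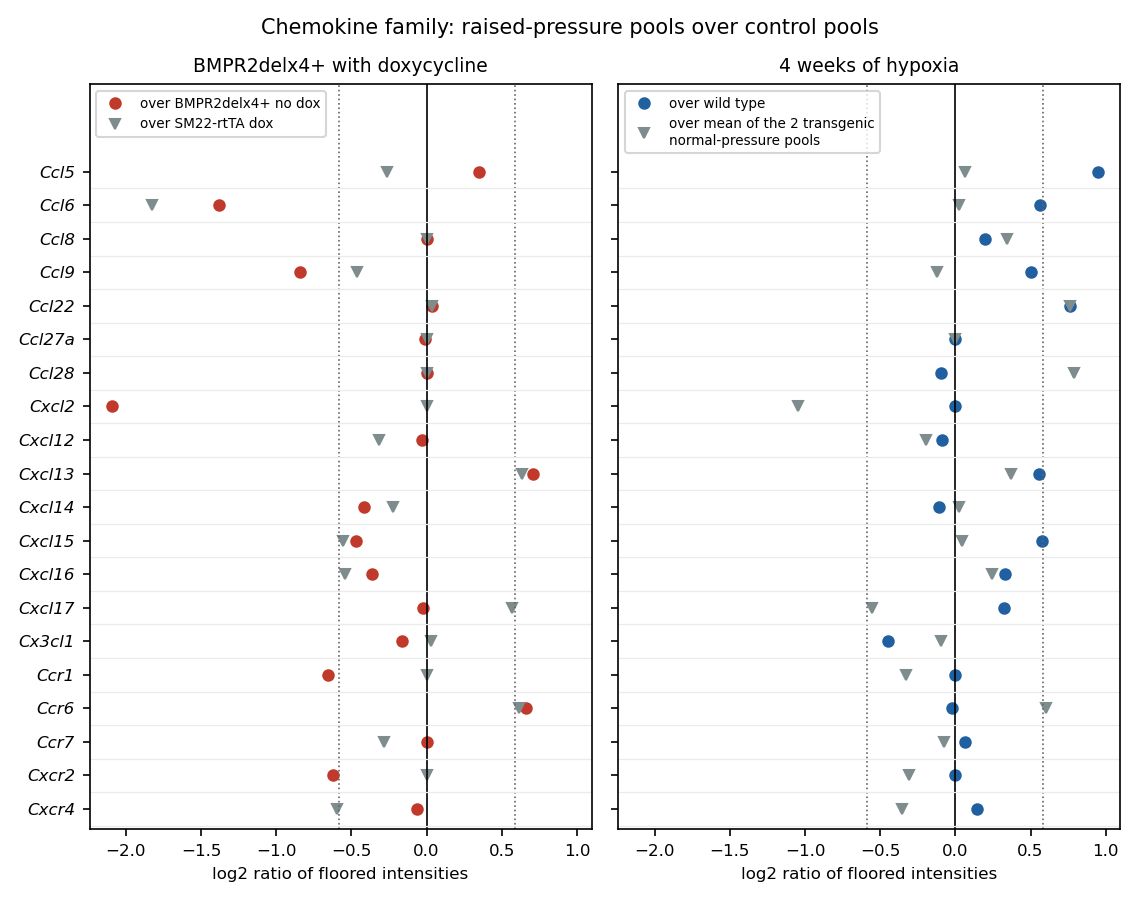
Log2 ratios of floored intensity for the same 20 genes, the induced BMPR2delx4+ pool on the left and the hypoxic pool on the right, each over its matched control (circles) and over other normal-pressure pools (triangles); dotted lines mark 1.5-fold. Ccl6 is at -1.38 and -1.83 on the left, whereas Cxcl2 is at -2.09 over the matched control and 0.00 over SM22-rtTA.

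Cxcl2, Cxcr2, Ccr1 and Ccl27a were above the floor in the uninduced control and at the floor in every other pool. Ccl27a was at 278 and so barely above it. The set was named after the values were seen. The share of all genes with this pattern was not counted, so how many members show it cannot be read as a trait of the family. Cxcl2, an inducible CXC ligand with the Glu-Leu-Arg motif, was at 1176 in the uninduced pool and at the floor in the other 4, at least 4.26-fold lower. Its receptor Cxcr2 was at 425 in the uninduced pool and at the floor elsewhere, and Ccr1, a receptor of neutrophils and monocytes that binds Ccl6 and Ccl9, was at 436 and at the floor elsewhere. The second probe set of Ccr1 was at the floor in all 5 pools, and with the mean of probe sets the log2 ratio of SM22-rtTA to the uninduced pool was -0.14 in place of -0.66, with no call. Other ligands of Cxcr2 did not share this pattern: Cxcl1 and Cxcl5 were at the floor in every pool. For Cxcl2, Cxcr2 and Ccr1 the value in the uninduced pool is therefore also what placed them among the 20. These 3 members were at least 1.5-fold higher there than in each of the other 4 pools, against 0.407% of all measured genes. By the reverse rule 0 members were lower, against 0.163%. This view was chosen after the values were seen. By the matched ratio alone Cxcl2, Cxcr2 and Ccr1 were lower in the induced pool. That gave 5 lower members in place of 2, against 2.57% of measured genes, and 2 higher, against 5.04%. Cxcl2, Cxcr2 and Ccr1 were not called there, because the wild-type and SM22-rtTA pools were at the floor as well.

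Of the 11 measured neutrophil genes, 5 were highest in that pool as well, S100a8, S100a9, Csf3r, Mmp8 and Mmp9. The other 6 were not: Ngp, Lcn2 and Mpo were highest in hypoxia, Ltf and Elane in wild type and Fpr2 in SM22-rtTA. S100a8, a calcium-binding protein of neutrophil cytosol, was at 7120 in the uninduced pool, 4672 in SM22-rtTA, 2174 in the induced pool, 1720 in hypoxia and at the floor in wild type. Its partner S100a9 was at 6283 in the uninduced pool and 4095 in SM22-rtTA, and the growth factor receptor Csf3r at 953 and 774. Il1b, the cytokine that induces Cxcl2 in many cells, was at 2126 in the uninduced pool, 562 to 693 in the induced, hypoxic and SM22-rtTA pools and at the floor in wild type. Over the 12 neutrophil genes on the array the summed intensity was 18066 in the uninduced pool, 12588 in SM22-rtTA, 7242 in hypoxia, 6326 after induction and 4121 in wild type. SM22-rtTA thus had high S100a8 and S100a9 with Cxcl2, Cxcr2 and Ccr1 at the floor. On the neutrophil list Camp was at the floor in all pools, and the part of neutrophils in these values was not tested.

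**Figure D3:**
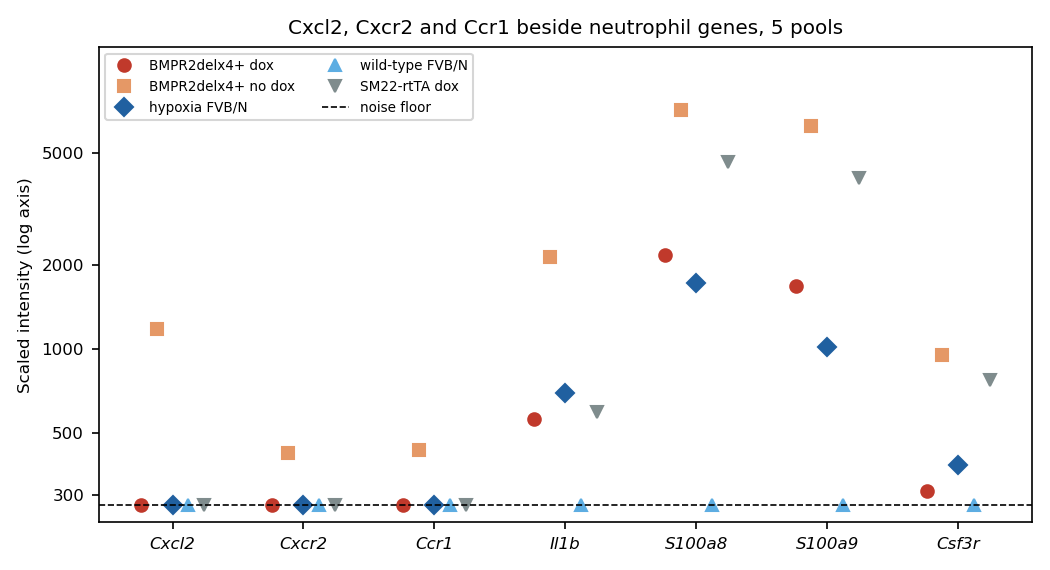
Scaled intensity on a log axis of Cxcl2, its receptor Cxcr2, the receptor Ccr1, Il1b and the neutrophil genes S100a8, S100a9 and Csf3r, 1 point per pool, with the noise floor dashed. The uninduced BMPR2delx4+ pool (orange squares) is the highest for each of these 7 genes, which were chosen after their values were seen, with Cxcl2 at 1176, while SM22-rtTA (grey triangles) is next for S100a8 at 4672 and at the floor for Cxcl2.

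Between the transgenic normal-pressure pools, SM22-rtTA against uninduced BMPR2delx4+, 1 of the 20 members was at least 1.5-fold higher, against 3.00% of measured genes, and 4 were lower, against 4.51%. The lower ones were Cxcl2, Cxcr2, Ccr1 and Cxcl17, the last at 1.51-fold and not called with values as deposited or after quantile normalization. The higher one was Ccl5, a ligand of T cells and natural killer cells, at 944 in SM22-rtTA and 618 in the uninduced pool. The SD of the log2 ratio between these 2 pools was 0.34 over the 5904 genes above the floor in all pools. The median log2 ratio of members and that of all measured genes were both 0.00.

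Hypoxia was set against wild type to ask which chemokine genes accompany raised pressure when no transgene is present. Ccl22, made by dendritic cells and macrophages and a ligand of Ccr4, was called higher. This was 1 of the 20 members, against 4.19% of measured genes, and 0 were lower, against 4.82%. The median log2 ratio was 0.11 over the members and 0.03 over all measured genes.

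Ccl22 was at 468 in the hypoxic pool, 284 in the induced pool and at the floor in the 3 normal-pressure pools. The hypoxic pool stood apart from the other 4, exceeding wild type at least 1.69-fold and the induced pool 1.65-fold. Ccl22 had a single probe set, and Ccr4 was at the floor throughout. Among 9 measured dendritic cell genes, 1 was called higher in hypoxia, the transcription factor Irf8 at 889 against 472. For Irf8 the SM22-rtTA pool was at 708, the uninduced pool at 862 and the induced pool highest, at 912.5. The list summed to 19850 in hypoxia, 17842 in wild type and 15239 to 20792 in the other 3 pools, with Flt3, Cd209a and Batf3 at the floor. Of 12 measured macrophage and monocyte genes 1 was called higher in hypoxia, the chitinase-like Chil3 at 2807 against 1459, and 0 were lower; that list summed to 21175 in hypoxia and 13982 to 20288 in the other 4 pools, with Adgre1, Marco and Siglec1 at the floor. The part of either cell type in the Ccl22 value was not tested.

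Ccl5 was at 800 in hypoxia, 415 in wild type, 944 in SM22-rtTA, 787 in the induced pool and 618 in the uninduced pool. It was 1.93-fold above wild type in hypoxia, and wild type was the lowest of the 5, so the hypoxic value lay within the range of normal-pressure pools and was not called. By the matched ratio alone 2 members were higher in hypoxia, Ccl22 and Ccl5, against 7.6% of measured genes, and 0 were lower, against 11.9%. Over the mean of the transgenic normal-pressure pools it was 1.05-fold. Among natural killer and cytotoxic cell genes, Gzma was at 940 in hypoxia against 362 in wild type and 836 in SM22-rtTA, and 2 of 6 measured genes on that list, Gzma and Nkg7, were called higher in hypoxia. That list summed to 3240 in hypoxia, 1998 in wild type and 2071 to 2663 in the others, with Klrk1 and Prf1 at the floor, and its part in the Ccl5 value was not tested.

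Ccl6 and Ccl9 went the other way in hypoxia than after induction. Ccl6 had a log2 ratio of 0.56 and Ccl9 of 0.50 to wild type, and neither was called. Set against the mean of the transgenic normal-pressure pools these were 0.02 and -0.12. The 2 raised-pressure pools differed directly in Ccl6, 3.09-fold higher in hypoxia. Against 11.4% of measured genes, 4 members were at least 1.5-fold lower in the induced than in the hypoxic pool: Ccl6, Ccl22, Ccl28 and Cxcl16. Cxcl17 was the 1 member higher in the induced pool, against 10.7%.

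With the wild-type pool left out and the mean of the transgenic normal-pressure pools as control, 3 members were higher in hypoxia, Ccl22, Ccl28 and Ccr6, against 12.1% of measured genes, and 0 were lower, against 4.16%. Ccl28, a ligand of mucosal epithelium, was at 477 in hypoxia, 511 in wild type and at the floor in all 3 transgenic pools. Both FVB/N pools were thus at least 1.73-fold above the transgenic ones for this gene, with or without hypoxia. Its second probe set was at the floor throughout. Ccl8 was likewise above the floor in the FVB/N pools alone, at 351 in hypoxia and 306 in wild type.

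Wild type differed from the mean of the transgenic normal-pressure pools in 2 members that were higher, Ccl28 and Ccr6, against 16.9% of measured genes, and 4 that were lower, Ccl5, Ccl9, Cxcl2 and Cxcl17, against 10.2%. The median log2 ratio was -0.16 over the members and 0.00 over all measured genes. For Cxcl2 the lower value comes from the uninduced pool, since SM22-rtTA was at the floor like wild type. The wild-type pool is the one with kidney genes, and brown fat genes were higher there too, 3 of 4 measured (Ucp1, Cidea and Cox7a1), with a sum of 3644 against 864 in the uninduced and 855 in the SM22-rtTA pool and Dio2 and Elovl3 at the floor. The sum was 5569 in the induced pool. Their part in these differences was not tested.

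Of the constitutive CXC ligands, Cxcl15, known as lungkine and made by lung epithelium, was at 4843 in the induced pool, 6701 in the uninduced pool, 7138 in hypoxia, 4780 in wild type and 7120 in SM22-rtTA. The induced and wild-type pools formed a low pair and the other 3 a high group. No call was made, at 1.38-fold below the matched control after induction and 1.49-fold above it in hypoxia. Alveolar type 2 genes had a median log2 ratio of -0.40 after induction and 0.19 in hypoxia, with Napsa called lower after induction, 1 of 7; their sum was 39522 in the induced pool and 49945 to 52573 in the others, and their part was not tested.

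Cxcl12, which retains leukocytes and progenitors through Cxcr4, was at 2048 in the induced pool, 2088 in the uninduced pool, 2021 in hypoxia, 2148 in wild type and 2554 in SM22-rtTA. Its highest and lowest pools were 1.26-fold apart. A second probe set did not follow it, at 1055 in wild type and 605 in hypoxia, a log2 ratio of -0.80 where the first gave -0.09. Cxcr4 was at 717, 750, 706, 639 and 1084 in the same order of pools. SM22-rtTA was highest for Cxcr4 and for the first probe set of Cxcl12, but not for the second, at 628 with wild type highest. It was also highest for 4 of 7 measured B cell genes, Cd79a (1792, against 478 or less in the other pools), Cd79b, Ms4a1 and Fcer2a. The other 3, Cd22, Pax5 and Blk, were highest in hypoxia, and Pax5 was lowest in SM22-rtTA, at 277. Ccr7, a lymphocyte and dendritic cell receptor, was at 336 in SM22-rtTA and 289 in hypoxia, and at the floor elsewhere. The part of B cells in the Cxcr4 and Ccr7 values was not tested.

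Cxcl17, a mucosal ligand of airway epithelium, was at 918 in the induced pool, 932 in the uninduced pool, 518 in hypoxia, 414 in wild type and 619 in SM22-rtTA. The BMPR2delx4+ pools were level with each other, at a log2 ratio of -0.02, and above the other 3 whether or not doxycycline was given. Cxcl16, which exists as a membrane-bound and a secreted ligand of Cxcr6, was at 503, 646, 816, 648 and 734 in the same order, lowest in the induced and highest in the hypoxic pool, which were 1.62-fold apart. Its second probe set was at 476 and 496 in those pools, so the difference between them rests on 1 probe set.

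Cxcl14, an epithelial and fibroblast ligand, was at 825 in the induced pool and 962 to 1131 in the other 4. Its second probe set was at the floor in the induced pool and at 330 to 526 elsewhere. With the mean of probe sets Cxcl14 was called lower after induction, and with the single probe set, at 1.34-fold, it was not. Cx3cl1, the membrane-anchored ligand of endothelium and epithelium, was at 378 in wild type, 316 in the uninduced pool and 282 in the induced pool, and at the floor in the hypoxic and SM22-rtTA pools. The other 2 probe sets of Cx3cl1 were above the floor in the FVB/N pools alone, at 331 and 306 in hypoxia and 419 and 327 in wild type, so the probe sets disagree on the hypoxic pool. Ccl27a was at 278 in the uninduced pool, against a floor of 276, and at the floor elsewhere.

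**Figure D4:**
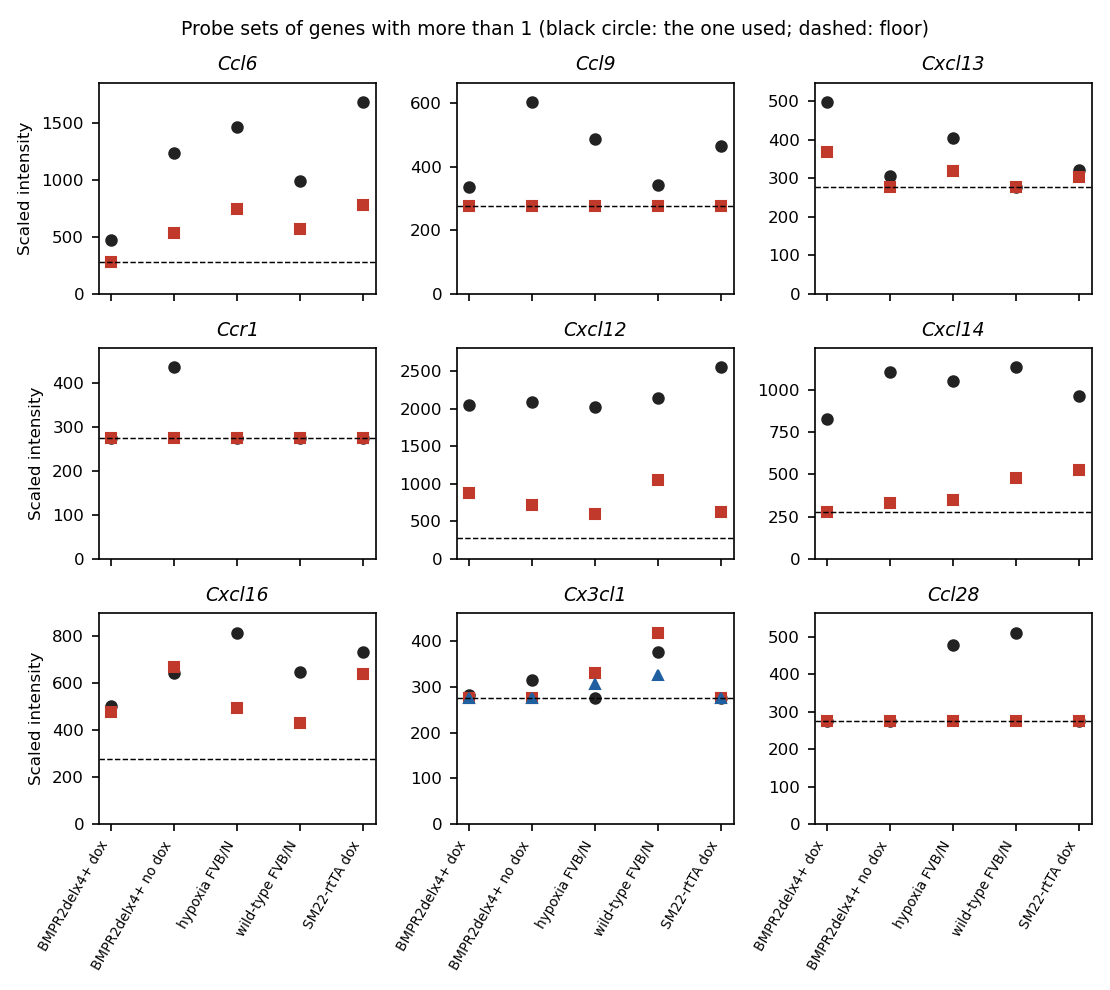
Scaled intensity in the 5 pools for each probe set of the 9 genes with more than 1 probe set and a value above the floor (dashed line); black circles mark the probe set that stands for the gene and coloured symbols the others. The probe sets of Ccl6 share their lowest pool, the induced one, and those of Cxcl13 their highest, whereas those of Cxcl12 differ in which pool is highest and those of Cx3cl1 in whether the hypoxic pool is above the floor.

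Genes that act beside the family were taken from lists. Of 9 atypical receptors and platelet chemokines 8 were measured. After induction 2 were called higher, the platelet chemokines Pf4 at 1718 against 1134 and Ppbp at 1930 against 1275, and 2 were called lower, Ackr2, a scavenger of inflammatory CC ligands, at 336 against 802, and Ccrl2, which binds chemerin, at 549 against 1079. Ackr2 was at 545 or more in the other 4 pools. Ccrl2 was at 604 in wild type, close to its value in the induced pool. Pf4 was at 1337 in SM22-rtTA and was not called over that pool, whereas Ppbp, at 1200 there, was. The platelet genes Itga2b (964 against 640) and Clec1b (570 against 327) were called higher with Pf4 and Ppbp, 2 of 4 measured on their list, which summed to 2578 in the induced and 1721 in the uninduced pool with Gp1bb and Treml1 at the floor; the part of platelets was not tested. In hypoxia Ackr4, a scavenger of Ccl19 and Ccl21, was the 1 gene called, at 418 against the floor in every other pool.

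Signalling genes gave few calls. Of 24 measured genes of receptor signalling and adhesion, 0 were called higher and 1 lower after induction, Dpp4, a peptidase that trims chemokine ends, at 524 against 874. In hypoxia 1 was higher, Rgs2, a regulator of G-protein signalling, at 3293 against 1839, and 0 were lower. Rgs2 was at 2612.5 in the uninduced pool. Over the mean of the transgenic normal-pressure pools its log2 ratio in hypoxia was 0.56, and it was not called. Of 11 measured inducers of chemokine genes 0 were called in either comparison. The NF-kappaB inhibitor Nfkbia was at 6812 to 8389 over the 5 pools, and the NF-kappaB subunit Rela at 1753 in wild type and 2373 to 2479 in the others. Il1b was not called, although it was at 562 against 2126 after induction, because wild type was at the floor.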

How the data were processed

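Whole-lung RNA was measured on 5 arrays, 1 pool for each condition, grouped by the sample titles. The deposited values are linear intensities, 1 per probe set, for 22626 probe sets; how the authors summarised, background-corrected and scaled them is not given in the sources used here. No deposited intensity was under 50, and between 9.85% and 12.5% of each array was at that limit.

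Log2 intensities were shifted so that the arrays shared a median over the 9046 probe sets brighter than each array's own 50th percentile (shifts of -0.04, -0.07, 0.08, 0.13 and -0.11 for induced, uninduced, hypoxic, wild-type and SM22-rtTA pools). The floor was the 50th percentile of all shifted values. Probe sets were named by the platform's annotation, and symbols were brought up to date through gene IDs in a RefSeq table (GRCm38.p6): 20380 had 1 gene (20351 matched), 691 several and 1555 none. Of 12393 genes, 8590 exceeded the floor somewhere and are called measured. The calling steps were tested on simulated pools with known changes. With 1 array per condition there was no test, and this number limits the precision. The members and lists were chosen with earlier results of these data known. Every member above the floor in at least 1 pool is named with its values; from other lists, up to 3 called genes per comparison, or the 2 with the highest mean, and others picked once values were known. Marker lists were written for T cells, thymocytes, natural killer cells, B cells, plasma cells, macrophages, dendritic cells, neutrophils, mast cells, endothelium, lymphatic endothelium, alveolar type 2 and club cells, smooth muscle, fibroblasts, platelets, skeletal muscle, stratified epithelium, brown fat and kidney. Python 3.11.15, numpy 2.4.6 and pandas 2.3.3 were used.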

Additional observations from a re-analysis of the deposited data

Results flagged for a closer look

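Ccl6 and Ccl9 had opposite signs in the 2 matched comparisons, each ratio larger than the SD of 0.34 between the transgenic normal-pressure pools. With wild type included, the normal-pressure pools spanned 0.76 (Ccl6) and 0.81 (Ccl9) on the log2 scale, more than the hypoxic ratios of 0.56 and 0.50. The log2 ratio of hypoxia to wild type minus that of the induced to the uninduced pool was 1.94 for Ccl6 and 1.35 for Ccl9. The difference was not tested, since each comparison holds 1 array per condition. Against the mean of the transgenic normal-pressure pools the hypoxic log2 ratios were 0.02 and -0.12, so with that control neither gene was higher in hypoxia by more than 0.02.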

How the results depend on the processing

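No paired analysis was possible because each condition has 1 array and the labels give no replicate numbers. For induction, the 2 higher members became 0 with the floor at the 70th percentile or a fold of 2, and the 2 lower became 1 with values as deposited, quantile normalization, the floor at the 70th percentile, a fold of 2 or SM22-rtTA as control, and 5 without the normal-pressure range. Ccl6 was called lower under all 9 alternatives (log2 ratio -1.83 to -1.15), Ccl9 under 3, and Ccr6 and Cxcl13 higher under 7 each. For hypoxia, the 1 higher member became 2 with the floor at the 30th percentile or without the range, 3 without wild type, and 0 with the floor at the 70th percentile or a fold of 2; the 0 lower became 1 (Cx3cl1) with the floor at the 30th percentile. Ccl22 was called under 6 of 8. For SM22-rtTA against uninduced, the 1 higher became 2 at the 30th percentile and 0 at a fold of 2, and the 4 lower became 3 as deposited and with quantile normalization (without Cxcl17) and with the probe set mean (without Ccr1), 6 at the 30th percentile, 2 at the 70th percentile and 1 at a fold of 2. For wild type against the transgenic pools, the 2 higher became 1 as deposited, with quantile normalization or the probe set mean, 4 at the 30th percentile, and 0 at the 70th percentile or a fold of 2; the 4 lower became 7 as deposited or at the 30th percentile, 0 at the 70th percentile and 1 at a fold of 2. No called ratio changed sign. The range without wild type for induction, and an added range rule for wild type, were chosen after seeing the data. Signal over the floor limits most of the family: at the 30th percentile floor, 132, 34 of the 47 members were above it in at least 1 pool.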

Other observations

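Probe sets that name several genes were left out of the family, and 4 of them include a chemokine. The one for the Ccl21 genes, lymphatic and lymphoid-tissue ligands of Ccr7, was at 2152 in the induced pool, 1708 in the uninduced pool, 1757 in hypoxia, 1204 in wild type and 1708 in SM22-rtTA, 1.26-fold above the highest normal-pressure pool after induction. The one for Ccl19, the other Ccr7 ligand, was at 332 in the induced pool and at the floor in the other 4. The 2 for the Ccl27 genes were at 340 and the floor in the induced pool and 341 and 284 in the uninduced pool. Which of the named genes gave these signals cannot be told from the probe sets. Among 4 measured lymphatic endothelial genes 0 were called after induction, with a median log2 ratio of -0.30, and 1 was higher and 1 lower in hypoxia.

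Over the remaining marker lists after induction, in the order higher and lower, 0 and 1 of 5 plasma cell genes were called, 0 and 0 of 3 mast cell and eosinophil genes, 0 and 3 of 11 endothelial genes, 0 and 0 of 6 club cell genes, 1 and 0 of 7 smooth muscle genes, 1 and 1 of 8 fibroblast genes and 3 and 0 of 4 brown fat genes. In hypoxia these were 0 and 2, 0 and 0, 1 and 0, 0 and 2, 0 and 0, 2 and 0, and 0 and 0.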
